A study of Mus musculus with 24 samples.

Results

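The insulin-like growth factor (IGF) transcripts of pancreatic stellate cells (PSC), the resident fibroblast-like cells of the pancreas, were examined in co-culture with KPC cells, a mouse pancreatic cancer line. The set was chosen by name, with earlier results of these data known. It holds 8 of the 53801 genes listed, namely the growth factor Igf1, its receptor Igf1r and the 6 binding proteins Igfbp2, Igfbp3, Igfbp4, Igfbp5, Igfbp6 and Igfbp7. All 8 had FPKM values (fragments per kilobase of transcript, scaled to library size) above 1 in every library, so all of them passed the filter on low values in each comparison. RNA was sequenced from 24 libraries in 8 groups of 3. In each group PSC came from wild-type C57BL/6J mice aged 7 to 10 weeks, with 4 to 10 pancreata pooled for an isolation, and were cultured with 10% serum on a membrane with 1 µm pores. KPC cells are a single line from 1 female mouse of 18 weeks. In standard co-culture the KPC cells sat on the well floor (labelled distant paracrine), in inverse co-culture on the underside of the membrane that carried the PSC (close paracrine). Either model was sampled at 24 h and 72 h beside mono-cultured control PSC of its own. KPC cells were already on the membrane when PSC were seeded in the inverse model, and time was counted from 24 h after seeding. Cells of this model therefore shared a well for 24 h longer than the time given, up to 96 h at the later time. Standard PSC attached in another medium with more serum and met the co-culture medium when co-culture began. Inverse PSC were seeded in the co-culture medium. Library input was 450 ng RNA for standard and 120 ng for inverse cultures. The effects of input, of shared time and of the earlier medium cannot be told apart from that of the model.

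IGF1 is a secreted hormone and local growth factor that acts through the receptor tyrosine kinase IGF1R, and mesenchymal cells are a main local source of it. IGF binding proteins hold IGFs outside the cell, extend their half-life and limit or direct their access to the receptor, and proteases release the growth factor again. IGFBP7 is a related protein with low affinity for IGFs. In pancreatic cancer, IGFs made by fibroblasts are studied as paracrine signals to the tumour cells.

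Libraries held between 15932737 and 24798761 counted fragments, recovered from the values. The 8 members rested on between 303 fragments (Igfbp5) and 123482 fragments (Igfbp4) in a library, so that counting error was small beside the spread between replicates. Among 11 markers of stellate cells and fibroblasts, 10 were above an FPKM of 1 in all libraries, and Gfap, an intermediate filament used to define quiescent stellate cells, was at most 0.237. The 3 standard libraries numbered 1, apart from the one of 72 h co-culture, stood apart with an Acta2 level (smooth muscle actin, the marker of activated stellate cells) of 3129 to 5963 FPKM, against 476 to 1509 in the other 9 standard libraries. The standard libraries numbered 2 had the highest level of the macrophage marker Lyz2 of their groups, at 266 to 915 FPKM. Keratin transcripts of epithelial cells were highest in replicate 2 of inverse co-culture at 24 h, with Krt8 at 15.2 FPKM against 0 and 2.00 FPKM in the other co-cultured libraries and 0 in all 3 controls, while Epcam did not exceed 0.123 in any library. In bulk RNA, fewer cells of a type and less RNA per cell cannot be told apart.

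On GRCm38, Igf1 lies at chr10:87858265-87937042, Igf1r at chr7:67952827-68233668, Igfbp6 at chr15:102144362-102149511 and Igfbp4 at chr11:99041244-99054392, all on the plus strand. Igfbp3 at chr11:7206086-7213923 and Igfbp7 at chr5:77349240-77408041 are on the minus strand. Igfbp2 (chr1:72824503-72852474, plus strand) and Igfbp5 (chr1:72857932-72874884, minus strand) are neighbours with their 3′ ends facing each other, and Pearson's r between their log2 levels was -0.53 over the 24 libraries. Promoters are shown for Igfbp2, Igf1 and Igfbp6, the 3 genes that passed the test in a co-culture comparison (below). Each window runs from 250 bases before to 50 bases after the transcript start of RefSeq on GRCm38.p6, and all 8 members had a window. Igfbp2 had 2, of which the first is shown, and the other held none of the letters searched. Capitals mark matches on either strand to the TATA box (letters TATAAA), to the GC box (letters GGGCGG) and to the palindromic E-box (letters CACGTG), and the motifs do not overlap in these windows.
Igfbp2, chr1:72824230-72824529, plus strand: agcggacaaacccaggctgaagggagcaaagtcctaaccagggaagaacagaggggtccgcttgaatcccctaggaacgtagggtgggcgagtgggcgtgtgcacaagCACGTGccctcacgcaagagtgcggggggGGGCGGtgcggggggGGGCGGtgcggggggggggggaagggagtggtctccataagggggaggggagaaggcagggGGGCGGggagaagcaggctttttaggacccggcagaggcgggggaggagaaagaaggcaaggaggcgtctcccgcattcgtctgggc
Igf1, chr10:87860861-87861160, plus strand: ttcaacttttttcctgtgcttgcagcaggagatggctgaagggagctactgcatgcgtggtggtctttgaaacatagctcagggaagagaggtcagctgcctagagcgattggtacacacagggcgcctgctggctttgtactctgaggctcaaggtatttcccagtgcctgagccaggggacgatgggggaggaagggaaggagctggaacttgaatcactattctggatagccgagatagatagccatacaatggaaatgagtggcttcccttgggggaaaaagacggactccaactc
Igfbp6, chr15:102143936-102144235, plus strand: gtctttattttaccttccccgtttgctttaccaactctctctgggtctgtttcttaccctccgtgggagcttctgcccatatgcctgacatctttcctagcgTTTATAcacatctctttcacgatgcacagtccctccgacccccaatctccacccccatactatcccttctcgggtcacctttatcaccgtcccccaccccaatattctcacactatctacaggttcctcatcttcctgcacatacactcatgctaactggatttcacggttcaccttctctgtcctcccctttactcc
The Igfbp2 window held 3 GC boxes and 1 palindromic E-box, and its GC content was 67.0%, higher than in 85.6% of all windows. The Igf1 window held none of these letters at a GC content of 52.3%, close to the median of all windows of 52.7%. The Igfbp6 window held 1 TATA box on the minus strand at a GC content of 49.7%, and it ends before the gene start of the GENCODE annotation. Of 32851 windows of the same length, 13.6% held the TATA box letters, 35.7% those of the GC box and 7.15% those of the E-box. The matches describe the letters only.

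Igfbp4, Igfbp7 and Igfbp3 were by far the most abundant members. Igfbp4, which binds IGFs and is cleaved by the protease PAPP-A, had a median of 3518 FPKM over the 24 libraries (896 to 4467) and ranked 10th among all genes by its mean. Igfbp7 had a median of 1639 FPKM (1310.3 to 2114) and Igfbp3, the main carrier of IGFs in blood, of 1298 FPKM (326 to 2205). Igfbp2 followed with 147 FPKM (23.01 to 1347), then Igfbp6, which prefers IGF2 over IGF1, with 83.3 FPKM (52.7 to 156) and Igf1 with 79.3 FPKM (20.8 to 168). Igf1r, with 26.2 FPKM (16.1 to 50.1), and Igfbp5, a binding protein that also attaches to extracellular matrix, with 21.95 FPKM (2.59 to 51.8), were lowest. These levels are per length, and the length behind the deposited values is the mean over the transcripts of a gene. With the length of all merged exons in its place, Igfbp7 came first, at 1569.7 FPKM, ahead of Igfbp4 at 942 and Igfbp3 at 856, and Igf1r last at 5.25. Comparisons of 1 gene between libraries do not depend on the length.

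The members also differed in how much they varied. Igfbp2 spanned 58.6-fold over the 24 libraries, 58.6-fold within the standard and 8.67-fold within the inverse model. Igfbp5 spanned 19.98-fold and Igf1 8.06-fold, whereas Igfbp7 spanned only 1.61-fold.

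**Figure D1:**
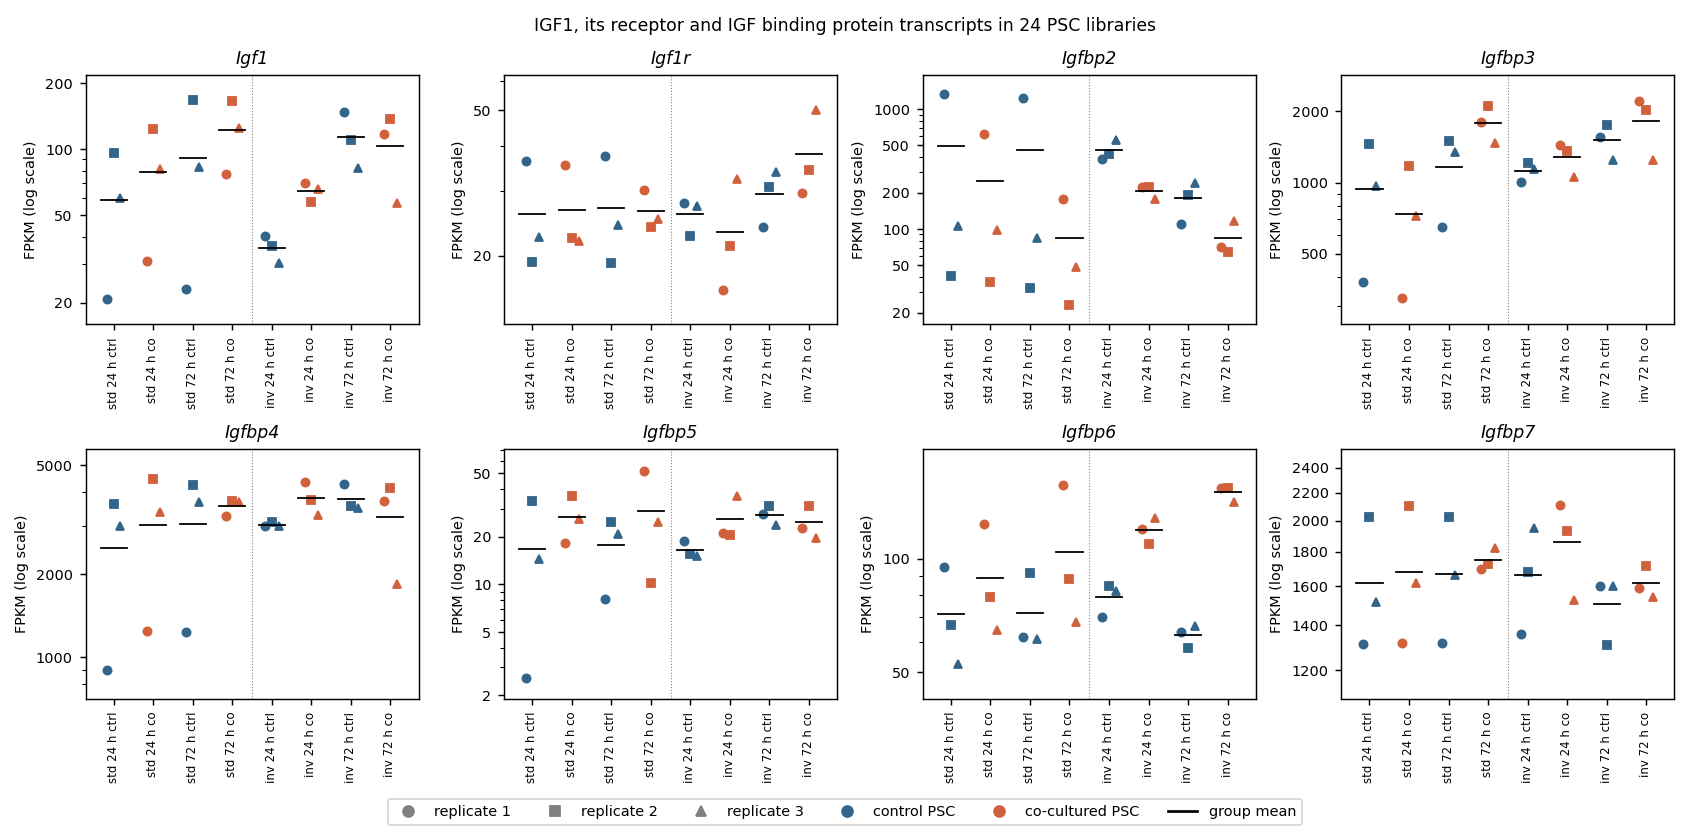
FPKM of each of the 8 members on a log axis in the 24 libraries, by group (std is standard, inv inverse, ctrl control and co co-culture). Points are libraries, their shape gives the replicate number and bars are group means. The standard libraries numbered 1 lie apart for Igfbp2 (1347 and 1248 FPKM in the controls) and for Igf1 (20.8 and 23.03 FPKM). The inverse groups are tighter for Igfbp2. For Igf1 they are tighter except in co-culture at 72 h, at 56.7 to 138 FPKM against 77.3 to 167 FPKM in the standard model. Igf1r spans 3.11-fold in the inverse and 1.97-fold in the standard model.

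In inverse co-culture at 24 h, Igf1 and Igfbp6 rose and Igfbp2 fell, so 3 of the 8 members changed (2.47% of 12827 genes tested were called, 1.08% higher and 1.39% lower). Igf1 was at 40.3, 36.2 and 30.2 FPKM in control PSC and at 70.1, 57.5 and 66.3 FPKM in co-cultured PSC. All co-cultured libraries lay above all controls. The log2 fold change, on the log2(FPKM + 0.5) scale as for all fold changes here, was 0.86 ± 0.13 (SE, adjusted p = 0.0168, limma).

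Igfbp2, one of the binding proteins that restrain IGF action in many tissues, was at 381, 419.9 and 557 FPKM in controls and at 226, 223 and 177 FPKM in co-culture. Again the groups did not overlap, and the mean was lower in co-culture at 0.461 times the control mean. Its log2 fold change was -1.10 ± 0.16 (SE, adjusted p = 0.0137, limma). Igfbp6 was at 70.1, 84.7 and 81.9 FPKM in controls and at 119.5, 109 and 128 FPKM in co-culture, with no overlap. Its log2 fold change was 0.59 ± 0.11 (SE, adjusted p = 0.0327, limma).

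The calls of 24 h rest on few libraries. Without control replicate 2 none of the 3 passed (adjusted p = 0.0806 for Igf1, 0.0539 for Igfbp2 and 0.0896 for Igfbp6, limma), and without control replicate 3 only Igfbp2 did. Igfbp6 also failed to pass without replicate 1 of either group. Without co-culture replicate 2, the library with the most keratin transcripts, the log2 fold changes were 0.94 for Igf1 (adjusted p = 0.0456), -1.16 for Igfbp2 (adjusted p = 0.0456) and 0.65 for Igfbp6 (adjusted p = 0.0800), so Igf1 and Igfbp2 passed and Igfbp6 did not. The remaining co-cultured libraries still held keratins, with Krt19 at 1.64 FPKM in replicate 1 and 2.53 FPKM in replicate 3 against 0.192 to 0.370 FPKM in controls. None of the 3 passed without a filter on low values, without an intensity trend or with all 24 libraries in one model.

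Markers of other cell types differed between these groups too. Summed epithelial markers were at 0.301 to 0.370 FPKM in controls (0 of 6 above an FPKM of 1, and 4 of 6 at 0 in all 3 libraries) and at 1.84 to 42.99 FPKM in co-culture (1 of 6 above 1), with no overlap. Summed adipocyte markers were at 213 to 307 FPKM in controls and at 113 to 253 FPKM in co-culture, with 6 of 7 above 1 in either group. Summed macrophage markers were at 75.0 to 83.3 FPKM in controls (6 of 10 above an FPKM of 1) and at 26.0 to 86.5 FPKM in co-culture (4 of 10), and their part in the result was not tested.

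The other members of the inverse model at 24 h did not pass. Igfbp4, at 2988, 3097 and 3005 FPKM in controls and 4346, 3743 and 3284 FPKM in co-culture, and Igfbp5, at 18.7, 15.5 and 15.1 FPKM in controls and 21.1, 20.4 and 36.1 FPKM in co-culture, were separated between the groups as well. In all, 5 of 8 members had groups that did not overlap, 4 of them higher in co-culture, beside 21.2% of all genes tested (7.38% higher and 13.8% lower). The log2 fold changes of Igfbp4 and Igfbp5 were 0.31 ± 0.12 (adjusted p = 0.262) and 0.59 ± 0.21 (SE, adjusted p = 0.227, limma). Igfbp3 gave 0.19 ± 0.14, Igfbp7 0.16 ± 0.16 and Igf1r -0.21 ± 0.23 (SE), with overlapping groups.

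In inverse co-culture at 72 h, Igfbp6 was the only member that passed, and it rose 2.39-fold by the group means (12.8% of 13066 genes tested were called, 3.27% higher and 9.57% lower). Control PSC were at 63.7, 57.9 and 66.2 FPKM and co-cultured PSC at 154, 154 and 142 FPKM. The lowest co-cultured library lay far above the highest control. The log2 fold change was 1.25 ± 0.10 (SE, adjusted p = 0.00269, limma), and it passed with any 1 library left out. Without the replicate 1 libraries of both groups together it was at 1.25 and did not pass (adjusted p = 0.119, limma). The median of all genes tested was at -0.16 in this comparison, and with libraries scaled to remove that shift Igfbp6 was at 1.41 (adjusted p = 0.00163). Adipocyte markers moved the other way, as their summed level was 465 to 963 FPKM in these controls and 37.5 to 132 FPKM in co-culture, with 6 of 7 above an FPKM of 1 in every control library and 5 of 7 in every co-cultured one. Macrophage markers did so too, at 128 to 251 FPKM in controls (7 of 10 above 1) and 55.5 to 84.5 FPKM in co-culture (5 of 10), while epithelial markers were at 0 to 0.338 FPKM in controls and 1.504 to 7.78 FPKM in co-culture. Summed markers of stellate cells and fibroblasts were at 21451 to 27422 FPKM in controls and 29092 to 34921 FPKM in co-culture. The part of these markers in the result was not tested.

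Igfbp2 was again lower at 72 h, at 111, 193 and 241 FPKM in controls and 70.6, 64.3 and 118 FPKM in co-culture. Here 1 co-cultured library lay above the lowest control, and the log2 fold change of -1.09 ± 0.32 did not pass (SE, adjusted p = 0.0616, limma). It passed on the recovered fragments (adjusted p = 0.0387, limma voom), without co-culture replicate 3 (-1.35, adjusted p = 0.0270) and without control replicate 1 (-1.41, adjusted p = 0.0401).

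Igf1 was at 148, 110.3 and 82.4 FPKM in controls and at 118, 138 and 56.7 FPKM in co-culture at 72 h. The groups overlapped widely, with a log2 fold change of -0.18 ± 0.34 (SE, adjusted p = 0.745, limma). Igf1r was at 24.0, 30.9 and 33.9 FPKM in controls and 29.7, 34.4 and 50.1 FPKM in co-culture, with a log2 fold change of 0.34 ± 0.21 (SE, adjusted p = 0.308, limma). Igfbp3, Igfbp4, Igfbp5 and Igfbp7 lay between -0.30 and 0.24, all with overlapping groups. Only 1 of 8 members, Igfbp6, was separated between the groups at 72 h, beside 38.3% of all genes tested (9.53% higher and 28.8% lower).

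**Figure D2:**
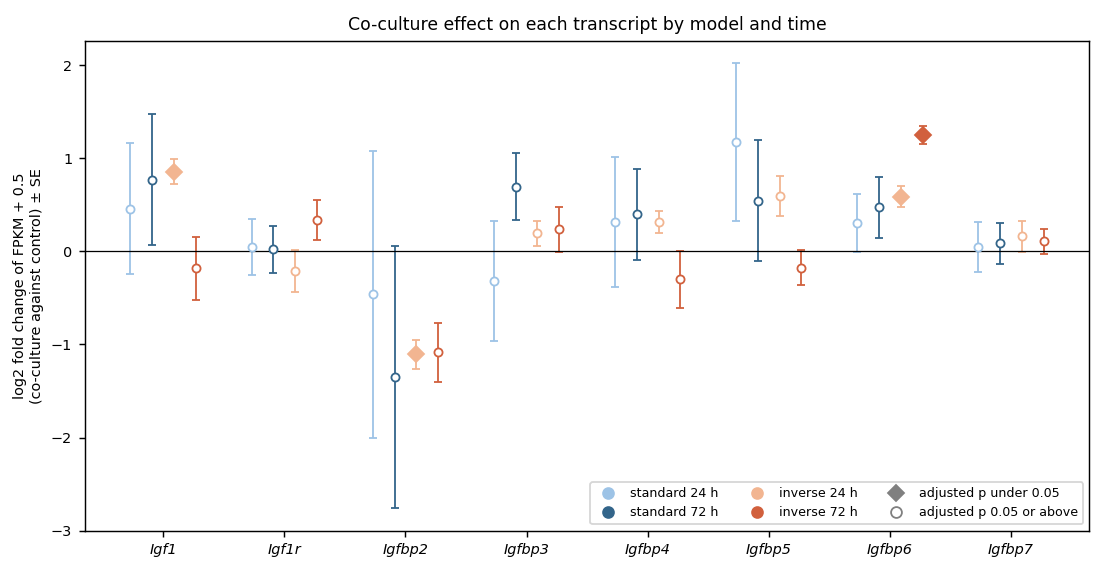
log2 fold change of FPKM + 0.5 in co-culture against control for each member in the 4 comparisons, with bars of 1 SE. Filled diamonds have an adjusted p under 0.05 (limma, 3 libraries against 3), namely Igf1, Igfbp2 and Igfbp6 in the inverse model at 24 h and Igfbp6 in the inverse model at 72 h, and open circles do not. The standard model has the longest bars, up to 1.54 for Igfbp2 at 24 h.

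In standard co-culture none of the 8 members passed at 24 h or at 72 h, and none of the 12859 and 12863 genes tested did (0%). By limma, 0 members had an unadjusted p under 0.05 at either time, beside 2.89% of all genes at 24 h and 6.22% at 72 h. The groups overlapped for 8 of 8 members at both times, whereas they did not for 7.73% of genes at 24 h and 13.1% at 72 h. The spread between the libraries was large, with a SE of 1.54 for Igfbp2 at 24 h. Same-numbered libraries of this model shared their deviations from the group means, as described with the processing, so values are also given within numbers.

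Igfbp2 was lower in co-culture in all 6 same-numbered pairs of the standard model. Same-numbered controls of 24 h and 72 h also deviated together (correlations of 0.48 to 0.77), so these pairs are not independent. How many of all genes keep the same sign over such pairs was not counted. At 24 h it went from 1347 to 622 FPKM in replicate 1, from 40.9 to 36.3 FPKM in replicate 2 and from 106 to 98.5 FPKM in replicate 3. At 72 h it went from 1248 to 179, from 32.3 to 23.01 and from 83.8 to 48.5 FPKM. Replicate 1 accounts for most of the difference of the means, as the co-culture mean at 72 h was 0.184 times the control mean with it and 0.616 times without it. Blocked by replicate number, the log2 fold change of Igfbp2 was -0.46 ± 0.19 at 24 h (adjusted p = 0.331, limma) and -1.35 ± 0.46 at 72 h (SE, adjusted p = 0.420, limma).

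Igf1 was higher in co-culture in 3 of 3 pairs at 24 h, at 31.0, 124 and 81.4 FPKM against 20.8, 95.9 and 60.1 FPKM. The ratios differed little between pairs although the levels differed several-fold. The blocked log2 fold change was 0.46 ± 0.08 (SE, adjusted p = 0.0578, limma). With the block and scaling by the median of gene ratios together, and with the block on the recovered fragments, Igf1 passed as the only member, both fits being chosen after the data were seen. At 72 h Igf1 was at 77.3, 167 and 126 FPKM against 23.03, 168 and 82.9 FPKM, higher in 2 of 3 pairs.

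Among the binding proteins of the standard model, Igfbp3 was lower in all 3 pairs at 24 h, at 326, 1173 and 723 FPKM in co-culture against 381, 1459 and 969 FPKM in controls. At 72 h it was higher in all 3, at 1796, 2103 and 1471 FPKM against 647, 1497 and 1344 FPKM. The difference between the times was 1.02 ± 0.43 on the log2 scale with the block (SE, unadjusted p = 0.0396, adjusted p = 1.00, limma), so it did not pass. Igfbp4, Igfbp5, Igfbp6 and Igfbp7 were higher in 3 of 3 pairs at 24 h and in 2 of 3 pairs at 72 h.

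Igfbp5 gave pairs that differed widely, as replicate 1 went from 2.59 to 18.2 FPKM at 24 h and from 8.04 to 51.8 FPKM at 72 h, while replicate 2 went from 33.3 to 36.1 FPKM and from 24.6 to 10.3 FPKM. Without the libraries numbered 1, the mean log2 difference of Igfbp5 at 72 h was -0.49 instead of 0.54 and that of Igfbp4 -0.10 instead of 0.40, so the sign of both rests on these libraries. That of Igfbp7 turned as well, from 0.09 to -0.05. Igf1r had a log2 fold change of 0.05 at 24 h and of 0.02 at 72 h. With the block, 6 of 8 members had an unadjusted p under 0.05 at 24 h, beside 15% of all genes, and 1 of 8 at 72 h, beside 10.8%, but 0 passed after adjustment (1.22% and 0.00777% of genes were called with the block).

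The co-culture effects of the 2 models were compared directly over all 24 libraries, and no member passed at 24 h or 72 h (0% of 14452 genes called at either time). The largest difference relative to its error was that of Igfbp6 at 72 h, 0.78 ± 0.37 on the log2 scale higher in the inverse model (SE, unadjusted p = 0.0495, adjusted p = 0.997, limma). For Igf1 at 72 h the inverse minus the standard effect was -0.95 ± 0.87 (SE, adjusted p = 0.997, limma). With the replicate block the errors at 72 h were smaller, and 0.111% of genes but no member were called. Igfbp6 was then at 0.78 ± 0.26 (unadjusted p = 0.00881, adjusted p = 0.398) and Igf1 at -0.95 ± 0.35 (SE, unadjusted p = 0.0159, adjusted p = 0.465, limma). Thus a call in the inverse model and none in the standard model does not show a difference between the models, and the spread of the standard libraries enters these errors.

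The co-culture effects at 72 h and 24 h were likewise compared within each model, and no member passed (0% of 13694 genes called in the standard and 0% of 13722 in the inverse model). In the inverse model, the effect on Igfbp6 was larger at 72 h by 0.66 ± 0.14 (SE, unadjusted p = 0.000521, adjusted p = 0.137, limma). The effect on Igf1 was smaller at 72 h, by -1.04 ± 0.40 on the log2 scale (SE, adjusted p = 0.401, limma), and that on Igfbp2 differed by 0.02 ± 0.39 (SE, adjusted p = 0.994, limma).

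Mono-cultured PSC of the inverse model did not keep constant IGF transcript levels between 24 h and 72 h. Igf1 rose from 40.3, 36.2 and 30.2 FPKM to 148, 110.3 and 82.4 FPKM, 3.19-fold by the means. Igfbp5 rose from 18.7, 15.5 and 15.1 FPKM to 27.6, 31.2 and 23.5 FPKM. Igfbp2 fell from 381, 419.9 and 557 FPKM to 111, 193 and 241 FPKM. These 3 of 8 members passed (19.2% of 13092 genes tested were called, 10.2% higher and 9.05% lower), with log2 fold changes of 1.63 ± 0.20 for Igf1 (adjusted p = 0.00227), 0.72 ± 0.14 for Igfbp5 (adjusted p = 0.00880) and -1.37 ± 0.26 for Igfbp2 (SE, adjusted p = 0.00932, limma). With all 24 libraries in one model none of the 3 passed (adjusted p = 0.182 for Igf1, 0.564 for Igfbp5 and 0.566 for Igfbp2, limma).

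Igfbp3 at 0.43 ± 0.14 (adjusted p = 0.0618), Igfbp6 at -0.33 ± 0.10 (adjusted p = 0.0563) and Igfbp4 at 0.31 ± 0.12 (SE, adjusted p = 0.105, limma) did not pass although their groups did not overlap. In all, 6 of 8 members were separated by time in these controls, beside 39.7% of all genes tested (22.8% higher and 16.9% lower). Over the same interval, the summed adipocyte markers rose in range from 213 to 307 FPKM at 24 h to 465 to 963 FPKM at 72 h, and the summed macrophage markers from 75.0 to 83.3 FPKM to 128 to 251 FPKM, and their part in the result was not tested. In control PSC of the standard model no member passed (0% of 12963 genes called) and none was separated by time (4.57% of genes were), and Igf1, at 20.8, 95.9 and 60.1 FPKM at 24 h and 23.03, 168 and 82.9 FPKM at 72 h, was higher in all 3 numbers.

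Ordered by group mean, Igf1 was highest in standard co-culture at 72 h, with 123 ± 44.8 FPKM (SD, n = 3), and lowest in inverse controls at 24 h, with 35.6 ± 5.04 FPKM. Its 3 next groups, inverse controls at 72 h with 114 ± 32.9, inverse co-culture at 72 h with 104 ± 42.1 and standard controls at 72 h with 91.2 ± 72.6 FPKM (SD, n = 3), lay within each other's spread. Igfbp6 was highest in inverse co-culture at 72 h with 149.7 ± 6.93 FPKM, followed by inverse co-culture at 24 h with 119 ± 9.28 FPKM, and lowest in inverse controls at 72 h with 62.6 ± 4.23 FPKM (SD, n = 3). Igfbp2 was lowest in both co-cultures of 72 h, with 83.6 ± 83.9 FPKM in the standard and 84.2 ± 29.2 FPKM in the inverse model (SD, n = 3), which did not differ beyond their spread.

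The make-up of the binding protein transcripts was dominated by Igfbp4, Igfbp7 and Igfbp3. The 6 binding proteins summed to between 3654 and 8270 FPKM in a library, with a median of 6872 FPKM. Igfbp4 took a median of 51.0% of this sum (22.2% to 57.1%), Igfbp7 25.6% (18.97% to 36.1%) and Igfbp3 18.7% (8.92% to 28.5%). Per merged exon length the medians were 25.7%, 45.4% and 22.97%, so that the first place depends on the length used.

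The share of Igfbp2 differed widely between libraries. It took 33.4% of the sum in standard control replicate 1 at 24 h and 27.6% in standard control replicate 1 at 72 h, against a median of 2.45% over all libraries. In the inverse model at 24 h its share was 7.08% ± 1.02 in controls and 2.87% ± 0.14 in co-culture (SD, n = 3). The share of Igfbp6 at 72 h was 0.889% ± 0.091 in inverse controls and 2.25% ± 0.54 in inverse co-culture (SD, n = 3). Igf1 transcripts amounted to 0.565 ± 0.122 FPKM for each 100 FPKM of binding proteins in inverse controls at 24 h and to 0.898 ± 0.152 in the co-culture (SD, n = 3), whereas at 72 h they were at 1.59 ± 0.35 and 1.46 ± 0.28 (SD, n = 3), within the spread.

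**Figure D3:**
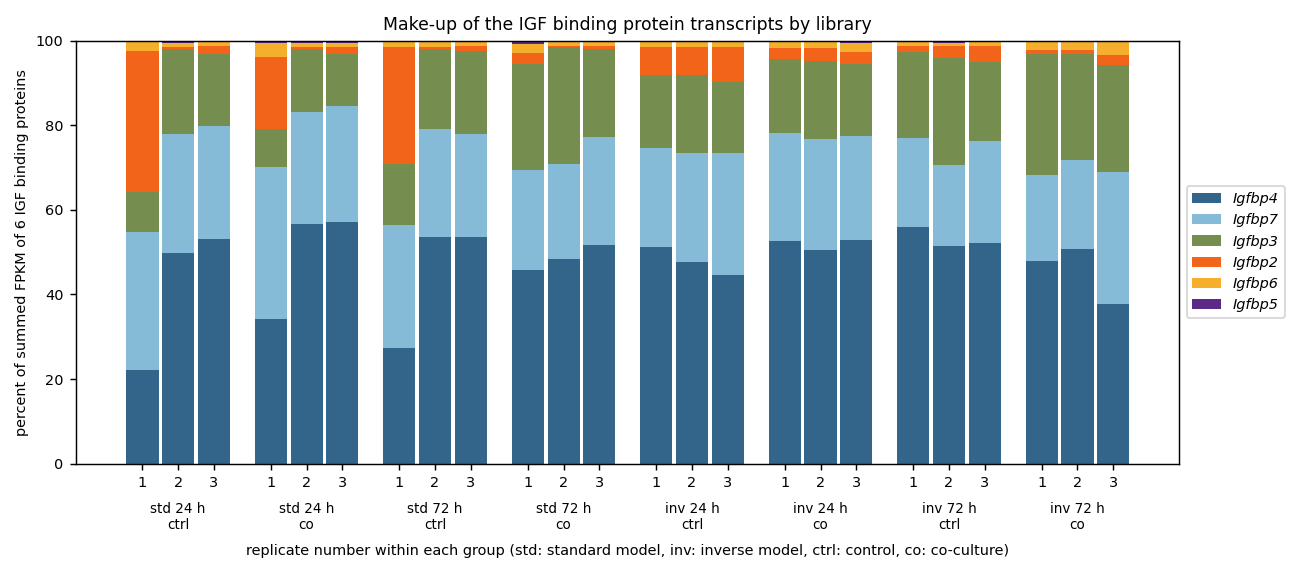
Share of each of the 6 IGF binding proteins in their summed FPKM, in percent, for each of the 24 libraries (std is standard, inv inverse, ctrl control and co co-culture, and numbers are replicates). Igfbp4, Igfbp7 and Igfbp3 fill most of each bar, and Igfbp2 reaches 33.4% and 27.6% in 2 standard control libraries.

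Igf1 and Igfbp2 ran in opposite directions across the libraries, Igfbp2 with Acta2 and Igf1 against it. On the log2 scale, Pearson's r of Igfbp2 with Acta2 was 0.96 over the 12 standard and 0.92 over the 12 inverse libraries, and that of Igf1 with Acta2 was -0.97 and -0.93. Without the standard libraries numbered 1, r over the other 8 standard libraries was 0.78 for Igfbp2 and -0.84 for Igf1. Between Igf1 and Igfbp2 themselves r was -0.98 in the standard and -0.85 in the inverse libraries. Libraries of a group share their treatment, and same-numbered standard libraries deviate together, so they are not independent points and these values describe the pattern only.

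Igfbp6 had an r with Acta2 of 0.11 over the standard and -0.36 over the inverse libraries, but of -0.88 over the 8 standard libraries without those numbered 1. Igfbp4 followed it inversely in the standard libraries at -0.97, but less closely in the inverse libraries at -0.43, and Igfbp7 did so at -0.93 in the standard libraries with 0.06 in the inverse ones. Acta2 itself was at 2835, 2790.4 and 2922 FPKM in inverse controls at 24 h and at 1474, 1519 and 1253 FPKM in inverse co-culture at 24 h. Acta2 does not stand for all 11 markers of stellate cells and fibroblasts. Of the 10 tested, 2 were called higher and 1 lower there, beside 1.08% and 1.39% of all genes tested. The summed level of the 11 was 23481 to 25995 FPKM in controls and 26928 to 31927 FPKM in co-culture. In this comparison Igf1 and Igfbp6 rose and Igfbp2 fell. Macrophage markers moved with Igf1 too, as r with their mean log2 level was 0.83 in the standard and 0.39 in the inverse libraries. For Igfbp6, r with macrophage markers was -0.04 in the standard and -0.66 in the inverse libraries. With adipocyte markers it was -0.45 and -0.83.

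**Figure D4:**
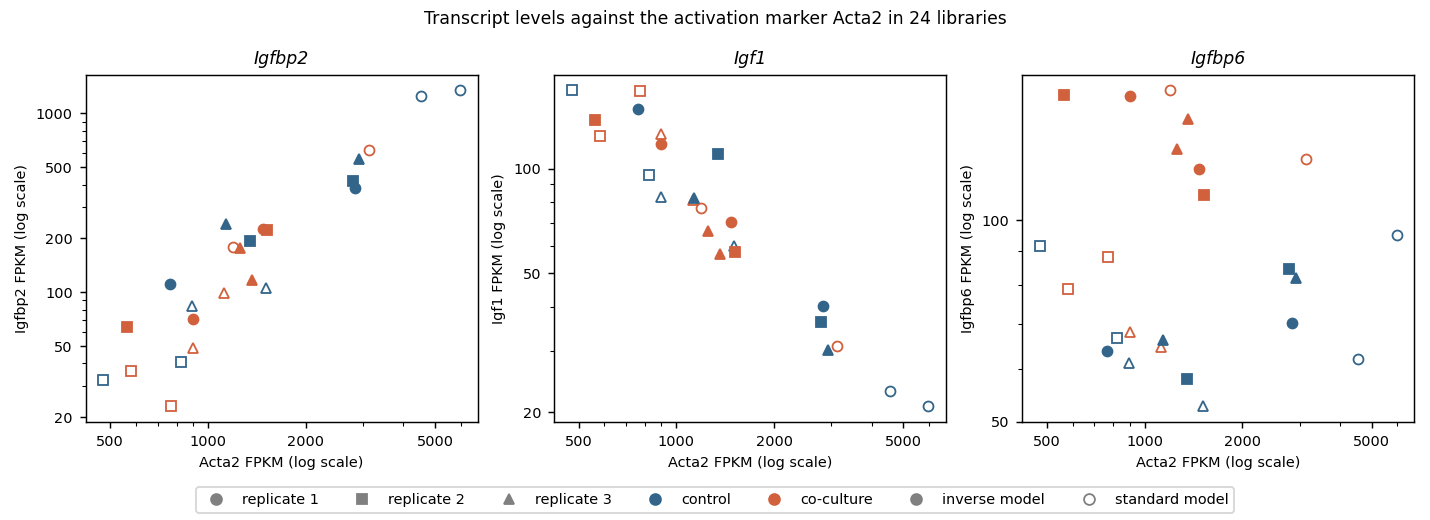
FPKM of Igfbp2, Igf1 and Igfbp6 against Acta2, all on log axes, with 1 point per library (filled, inverse; open, standard; shapes are replicate numbers). Igfbp2 rises and Igf1 falls with Acta2 in both models (r of 0.96 and -0.97 in the standard, 0.92 and -0.93 in the inverse model), while the co-cultured inverse libraries lie above their controls for Igfbp6 at a range of Acta2 levels.

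The genes most like each member over the 24 libraries, among 14451 others and by Pearson's r on the log2 scale, are given as a description. For Igf1 they were Cyp1b1 (r = 0.95), a cytochrome P450, the complement component C3 (r = 0.95) and Scamp1 (r = 0.94). For Igfbp2 they were Popdc2 (r = 0.96), the calpain subunit Capn2 (r = 0.95) and the small heat shock protein Hspb6 (r = 0.95). For Igfbp6 they were the prostacyclin synthase Ptgis (r = 0.90), Apbb1ip (r = 0.87) and the glycolytic enzyme Gpi1 (r = 0.86).

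Igfbp4 had the closest companions, Cpxm1 (r = 0.98), the extracellular glutathione peroxidase Gpx3 (r = 0.97) and the microfibril protein Mfap2 (r = 0.96). Those of Igfbp3 were the bone morphogenetic protein antagonist Chrd (r = 0.91), Kng1 (r = 0.89) and the enolase Eno2 (r = 0.89), and those of Igf1r were the transcription factor Tead1 (r = 0.90), Adam19 (r = 0.85) and Tram2 (r = 0.84). Igfbp5 and Igfbp7 had the least close ones, Ltbp3 (r = 0.83), Mmp19 (r = 0.83) and Angptl2 (r = 0.81) for Igfbp5, and Cxcl16, Tmem50a and Tmem176b (r = 0.85 each) for Igfbp7.

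Other genes of the IGF axis were counted over a list of 39 ligands, receptors, adaptors, proteases and regulators. Of these, Igf2, the second IGF, did not exceed 0.0792 FPKM in any library, and Igfbp1 and Igfbpl1 did not exceed 0.165 and 0.194 FPKM. Irs4 was listed at 0 in all 24. The IGF2 scavenger receptor Igf2r was at 36.4 to 123 FPKM and the insulin receptor Insr at 7.55 to 21.6 FPKM. The adaptors Irs1 and Irs2, which couple the receptors of IGF1 and of insulin to PI3-kinase, were at 1.69 to 4.97 and 2.08 to 9.81 FPKM.

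In the standard model 0 of 33 listed genes tested passed at 24 h and 0 of 31 at 72 h. In the inverse model at 24 h, 2 of 30 fell and 0 rose, beside 1.39% of all genes tested that were lower and 1.08% that were higher. They were the protease Adamts1, with a log2 fold change of -0.72 (adjusted p = 0.0168), and the PI3-kinase regulatory subunit Pik3r1, with -0.70 (adjusted p = 0.0266, limma). At 72 h, 1 of 31 rose and 6 fell, beside 3.27% of all genes tested that were higher and 9.57% that were lower. The 6 include Igfals, which met the filter on low values only through its controls (below). The 3 with the smallest adjusted p were Pik3r1 at -1.38 (adjusted p = 0.00385), the growth hormone receptor Ghr at -1.58 (adjusted p = 0.00464) and the receptor adaptor Grb14 at -0.95 (adjusted p = 0.0101, limma). Ghr, through which growth hormone induces Igf1, went from 159 ± 34.6 to 52.3 ± 6.09 FPKM (SD, n = 3). The median log2 fold change of the 31 was -0.21, beside -0.16 over all genes tested.

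Of the genes whose products act on binding proteins outside the cell, Igfals and Stc2 passed at 72 h in the inverse model, in opposite directions. Igfals, the acid-labile subunit that joins IGFBP3 and IGFBP5 in a ternary complex with IGF, fell from 2.50 ± 0.40 to 0.468 ± 0.083 FPKM (SD, n = 3), with a log2 fold change of -1.63 (adjusted p = 0.0119, limma). It met the filter on low values only through the controls, at 2.07 to 2.88 FPKM. Co-cultured libraries were at 0.379 to 0.544 FPKM, near the pseudocount of 0.5, so its call is given as a description only. Stc2, a stanniocalcin that inhibits PAPP-A, rose from 2.50 ± 0.76 to 9.30 ± 5.01 FPKM (SD, n = 3), with a log2 fold change of 1.60 (adjusted p = 0.0378, limma). The other stanniocalcin Stc1 was at 9.08 ± 2.38 and 10.2 ± 0.21 FPKM and did not pass. Pappa, the protease that cleaves IGFBP4, was at 6.06 to 29.0 FPKM over the 24 libraries and did not pass in any co-culture comparison, the log2 fold change farthest from 0 being -0.78, for inverse co-culture at 24 h (adjusted p = 0.0534, limma). Its relative Pappa2 was at 0 to 2.69 FPKM and too low to be tested in the inverse model. In the standard model at 24 h Pappa2 was at 0.528 to 0.947 FPKM in co-culture and at 1.66 to 2.69 FPKM in controls. It met the filter there only through these controls and did not pass, and its standard groups overlapped at 72 h.

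In inverse controls, 9 of 31 listed genes rose from 24 h to 72 h and 3 fell, beside 10.2% of all genes tested that were higher and 9.05% that were lower. Among them Ghr rose by 1.26 on the log2 scale (adjusted p = 0.00239), Insr by 0.76 (adjusted p = 0.00601), Irs2 by 0.90 (adjusted p = 0.0179), Igf2r by 0.56 (adjusted p = 0.0315) and Igfals by 1.15 (adjusted p = 0.0194, limma). Socs2, an inhibitor of growth hormone signalling, changed by -0.68 (adjusted p = 0.00513, limma). Ghr and Pik3r1 were thus higher in the 72 h controls than in the 24 h controls and lower in the 72 h co-culture than in its controls. Igfals took the same course, but in both comparisons it met the filter on low values only through the 72 h controls. Its place in the counts of both comparisons is therefore a description only. These comparisons share the 72 h control libraries.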

How the data were processed

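RNA of PSC was sequenced in 24 libraries of 8 groups with 3 replicates each. The authors aligned reads with HISAT2 2.0.5 to GRCm38.p6, counted fragments with featureCounts 1.5.0-p3 at default settings, which disregard strand, and deposited FPKM values of 53801 genes. Of these, 53706 matched GENCODE M21. A gene's length behind the FPKM was the mean length of its transcripts, which gave whole fragments (within 0.02) in all libraries for 94.4% of genes above 0 and for all 8 members. The 8 members and all lists were chosen with earlier results of these data known. Values were compared with limma 3.58.1 (R 4.3.3) by its moderated test with intensity trend on log2(FPKM + 0.5), two-sided, for genes that exceeded an FPKM of 1 in 3 or more fitted libraries, with Benjamini-Hochberg adjustment over all of them and calls at an adjusted p under 0.05. Fits covered the libraries compared, all 24 for differences between models, or the 12 of a model for differences between times. Whether replicates came from separate isolations is not stated for each library, so p-values measure the spread between these libraries. An exact permutation test of 3 against 3 libraries cannot go below 0.1 and was not used. All 8 members are named, and of the other axis genes the 3 with the smallest adjusted p per comparison and 10 fixed ones.

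Replicate numbers are taken from the labels. Same-numbered libraries of the standard model deviated together from their group means (correlations over genes of 0.48 to 0.82), those of the inverse model did not (-0.17 to 0.15), so a replicate block was used beside the main fit for the standard model. Igf1 overlaps an antisense gene without sharing exon bases. Of the exon bases of Igfbp7, 7.03% are also exon bases of genes on the other strand, so reads on these bases could not be assigned by strand. Fits were also run on simulated data with independent noise in each library. This leaves out the shared deviations of same-numbered standard libraries, so the simulation is not used in support of any call. Alternatives were pseudocounts of 1 and 0.1, filters, scalings, no trend, other libraries in the model, the block, limma voom on recovered fragments and each library left out. Tables were handled with Python 3.11.15, pandas 2.3.3 and numpy 2.4.6, and plots made with matplotlib 3.10.9. The genotype of the KPC line is not reported here.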

Additional observations from a re-analysis of the deposited data

How the results depend on the processing

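The fold changes of called members kept their sign under each alternative run. In the inverse model at 24 h, 3 members were called, and 0 were called without a filter, without an intensity trend, with all 24 libraries in one model and with the replicate block; with single libraries left out, 0 to 3 were called. With libraries of one number left out of every group, chosen after the data were seen, 1 was called without number 1 and 0 without number 2. In the inverse model at 72 h, 1 was called, and 2 with the replicate block, with voom on the recovered fragments, with voom and the block together, and without number 3; 0 were called without number 1, and 1 to 2 with single libraries left out. In inverse controls over time 3 were called, and 5 with a mean FPKM above 5, with quantile normalization and with voom, but 0 with all 24 libraries in one model; single libraries left out gave 3 to 4. In the standard model at 24 h, 0 were called, and 1 (Igf1) with the block and median-ratio scaling and with voom and the block. The cause of these shifts was not tested. All other counts of members called stayed within 1.5 times. In the standard model the block changed no call of a member. In the inverse model same-numbered libraries did not deviate together over all genes, and the labels do not say whether the numbers pair them. With the block, 88 instead of 317 genes were called at 24 h, and 902 instead of 1678 at 72 h. The SE of Igfbp2 was 0.16 without and 0.18 with the block at 24 h, and 0.32 and 0.19 at 72 h. Over all genes, the block moved calls in the standard model at 24 h from 0 to 157. In the standard model at 24 h the median SE over all genes was 0.24 without and 0.13 with the block.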
